A study of Nothobranchius furzeri with 15 samples.

Results

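Brain genes of the turquoise killifish Nothobranchius furzeri were examined whose median level at 150 pM rotenone stood apart from the DMSO median while the median at 15 pM stayed near it. The members were chosen by a rule on measured values: a gene needed a mean count of at least 20 over 14 libraries, a shift of at least 0.585 in size between the 150 pM and DMSO medians of log2(CPM + 1), and a shift under 0.3 in size between the 15 pM and DMSO medians. CPM, the usual unit of depth-scaled counts, divides each count by its library total, and a shift of 0.585 is close to a 1.5-fold difference in CPM + 1. Of the 17956 genes with enough counts, among 26739 identifiers in all, 165 met the rule. Of these, 115 were higher at 150 pM and are called rises below, and 50 were lower and are called falls. Both words name the side of the shift that chose the gene and report no test.

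Rotenone is a plant-derived compound that blocks complex I of the mitochondrial respiratory chain, the entry point for electrons from NADH. Neurons depend heavily on respiration, and rotenone at far higher exposures is a long-used agent for modelling parkinsonism in rodents. Nothobranchius furzeri is an annual fish with one of the shortest lifespans among vertebrates kept in the laboratory, and the GRZ strain is a short-lived inbred line used in studies of ageing.

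All libraries came from brains of 9-week-old GRZ males treated with DMSO, with rotenone at 15 pM or with rotenone at 150 pM. The label of each sample gives 5 DMSO, 4 low-dose and 6 high-dose libraries, whereas 5 per group are given for the series. The dose of 150 pM replicate 1 is in doubt, since its title bears the number 1, beside 2 to 5 in titles at 15 pM and 8 to 12 in the other titles at 150 pM, and the rule left it out. The sources used here give neither the route and length of exposure nor whether each library came from a separate fish. P-values therefore rest on differences between libraries, and these may be technical. In a whole brain, fewer cells of a type and less RNA per cell cannot be told apart. Library totals ranged from 19401441 to 23210889 counts. The deposited tables do not pair the identifiers with gene names, and 0 of the 26739 identifiers matched the gene table used for names, so neither the roles of the members nor markers of brain cell types could be examined.

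Several libraries stood apart from their labels over the members, and the results below are given with and without them where they turn on them. DMSO replicate 1 sat with the 150 pM libraries over most of the rises. The high reading of 15 pM replicate 3 over many members set it apart from the other low-dose libraries. The doubtful library, 150 pM replicate 1, sat near the 15 pM libraries and DMSO replicates 2 to 5 over the rises.

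The shifts that chose the members were larger among the rises than among the falls. The 2 sets differ in level, since the DMSO median was under 1 CPM in 31 rises and 0 falls. Such rises could pass the count minimum through the libraries in which they were high. The median shift of the rises was 0.92 on the log2(CPM + 1) scale, with a range of 0.59 to 3.61 and a middle range of 0.68 to 1.31. A shift of at least 1 was seen in 47 rises (40.9%), of at least 2 in 12 and of at least 3 in 6. Most rises were therefore modest differences between medians, with a short tail of larger ones. The falls had a median shift of -0.68 and a range of -1.30 to -0.59, with 3 genes at a size of at least 1 and none at 2. Over all 17956 genes the median shift was -0.01, with quartiles of -0.09 and 0.09.

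Genes just inside and just outside the threshold had nearly the same values. The 5 rises nearest to it had shifts up to 0.595, and the 5 nearest genes outside had shifts of 0.574 to 0.583. The 5 falls nearest to it reached 0.589 in size, against 0.572 to 0.584 for the 5 nearest outside. A further 50 genes in the upward direction and 41 in the downward direction had a shift of at least 0.5 but under 0.585 with the 15 pM median within 0.3 of DMSO. The sets are thus cut from a continuous range of shifts.

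The limit on the 15 pM shift did different work in each direction. Of 523 genes with a 150 pM shift of at least 0.585 upward, 357 had shifted by 0.3 or more the opposite way at 15 pM and 51 the same way, which left the 115 rises. Of 360 genes with a downward shift of that size, 301 had shifted by 0.3 or more the same way at 15 pM and 9 the opposite way, which left the 50 falls. Within the limit, the 15 pM median of 88 of the 115 rises lay below the DMSO median and that of 27 above it, with a median shift of -0.11. Of the falls, 32 lay on the same side of DMSO at both doses and 18 on opposite sides, also with a median 15 pM shift of -0.11. The members nearest to the limit had 15 pM shifts of 0.297 in size among rises and 0.299 among falls, and the nearest genes outside had 0.301 and 0.306.

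**Figure D1:**
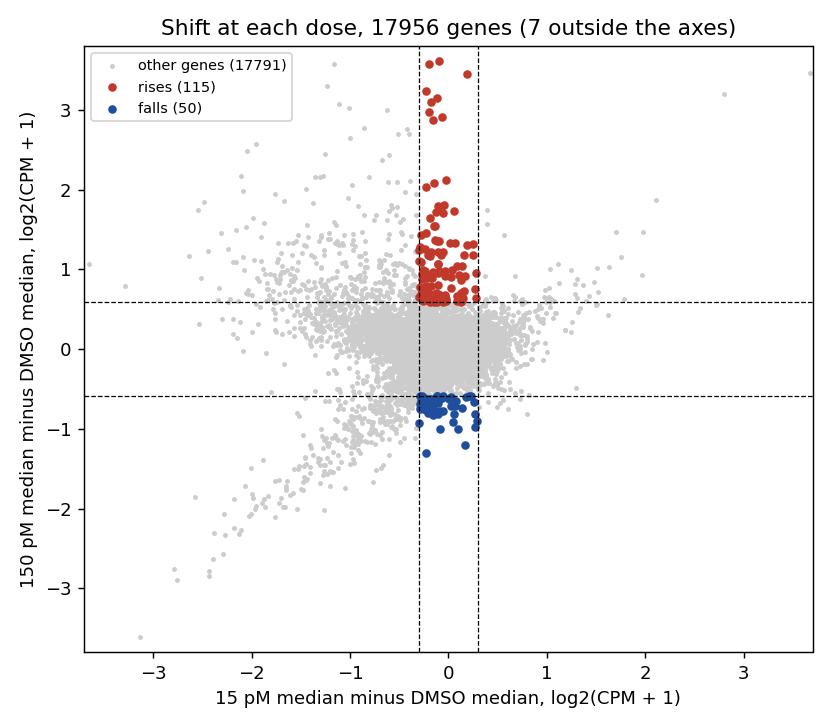
Shift of each gene at 15 pM (x axis) and at 150 pM (y axis), each the group median minus the DMSO median of log2(CPM + 1), with the rule's limits as dashed lines, 115 rises in red, 50 falls in blue and other genes in grey; 7 genes lie outside the axes. The red and blue points fill the upper and lower parts of the central column, most high genes outside it lie to its left, and most low genes outside it lie to its lower left.

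Rises were weakly expressed genes more often than not. Their mean level over the 14 libraries ran from 0.996 to 612 CPM with a median of 7.07. Per length, computed from each library's own total and the gene length implied by the deposited tables, the median RPKM of the rises was 2.50, against 4.67 for the falls and 8.34 for all genes. When all genes were divided into 4 equal classes by RPKM, 62 rises (53.9%) fell in the lowest class, 27 and 17 in the next classes and 9 in the highest. The falls were spread more evenly over these classes, with 16, 15, 11 and 8 genes. The count minimum keeps weak falls out more than weak rises, so this difference is partly built into the choice. In 31 rises the DMSO median was under 1 CPM, and these included the largest shift of all.

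Members varied more between libraries of the same group than other genes did. The mean of the 3 within-group SDs of log2(CPM + 1) had a median of 0.44 among rises and 0.38 among falls, against 0.14 over all genes. A large spread makes a shift between medians more likely to pass the rule, so this difference is partly built into the choice.

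The rises of high CPM were long genes, and the lengths of all genes at such CPM were not compared. The 11 rises with a mean of at least 100 CPM had implied lengths of 5515 to 23546 bases, with a median of 14435, and shifts of 0.59 to 0.79. Their levels per length were 8.33 to 35.5 RPKM, beside a median of 8.34 over all genes, so their high CPM values reflect length as well as level. Over all rises the median implied length was 2871 bases and over all genes 2776, with 40 rises (34.8%) in the longest of 4 equal length classes, which starts at 4806 bases. The other 3 classes held 29, 26 and 20 rises from the shortest up. Falls had a median length of 2373 bases, and 23 of the 50 lay in the second-shortest class. With the trend of level on length removed from each library, 111 rises and 45 falls met the rule, of which 95 and 37 were members.

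Read library by library, the rises did not divide by treatment label. Their median shift from the DMSO median was 0.69 in DMSO replicate 1, and 0.00, -0.08, 0.00 and 0.00 in DMSO replicates 2 to 5. The libraries at 15 pM had medians of -0.10, -0.14, 0.09 and -0.23 in replicates 1 to 4. At 150 pM the medians were 0.71, 1.05, 0.99, 0.93 and 0.41 in replicates 2 to 6. DMSO replicate 1 thus reached the level of the lower libraries at 150 pM, and 150 pM replicate 6 lay below it.

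The summed level of the 115 rises gave a similar picture. It was 5382 CPM in DMSO replicate 1 and 3081 to 4064 CPM in the other DMSO libraries, 2753 to 3716 CPM at 15 pM, and 4349 to 6634 CPM in the 5 libraries at 150 pM. DMSO replicate 1 lay inside the 150 pM range. The falls divided more cleanly by label. Their summed level was 787 to 998 CPM at 150 pM, 1202 to 1645 CPM in DMSO and 1377 to 1609 CPM at 15 pM. The rule chose the falls on these same libraries, which favours such a division. Read on falls they had no part in choosing, the libraries overlapped between treatments, as given below.

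**Figure D2:**
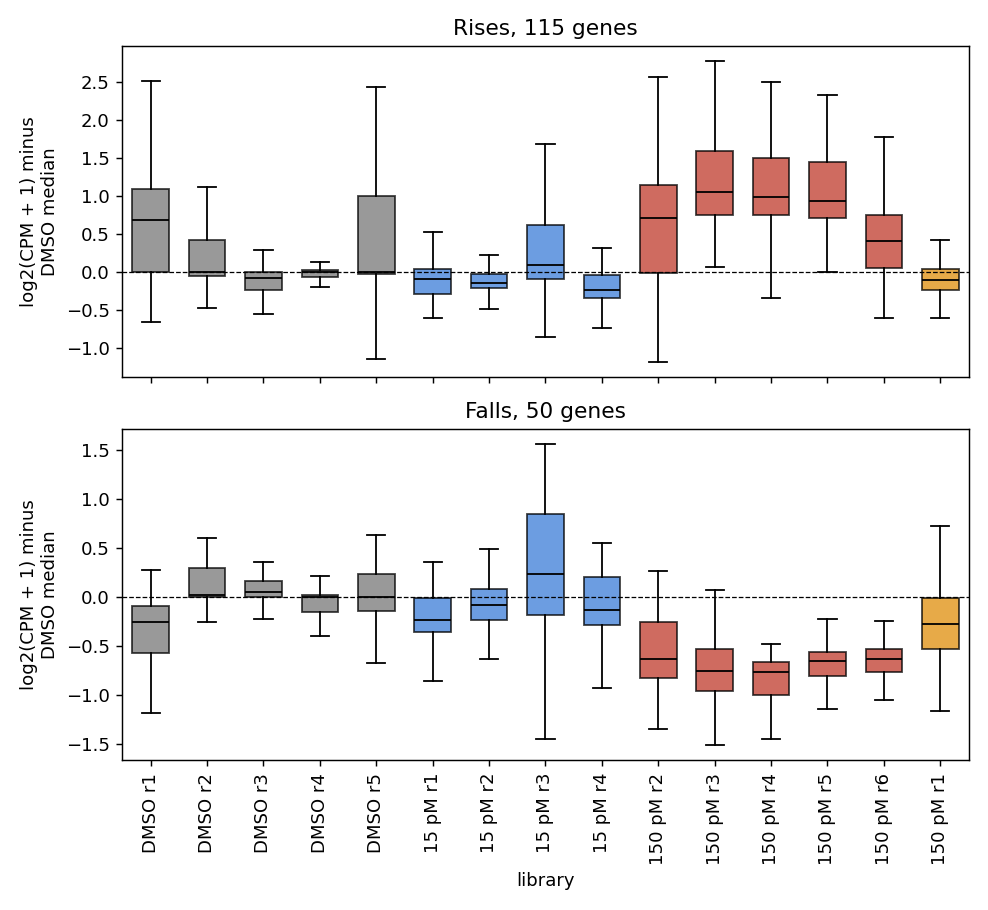
Shift of each member from its DMSO median, log2(CPM + 1), in each library, for 115 rises (top) and 50 falls (bottom); boxes span the quartiles, lines mark medians, and whiskers reach the last value within 1.5 box lengths. Among rises DMSO replicate 1, at a median of 0.69, stands with the libraries at 150 pM, and 150 pM replicate 1, at -0.11, lies within the range of the 15 pM libraries and just below every DMSO library.

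Each library was also placed for each gene on the DMSO side or the 150 pM side of the midpoint between the DMSO and 150 pM medians. Of the 115 rises, DMSO replicate 1 was on the 150 pM side for 74, DMSO replicate 5 for 36 and DMSO replicate 2 for 28, but DMSO replicates 3 and 4 for 2 each. At 15 pM, replicate 3 was on the 150 pM side for 36 rises and replicates 1, 2 and 4 for 3, 1 and 4. The 150 pM replicates 3, 4 and 5 were on their own side for 113, 109 and 110 rises, replicate 2 for 78 and replicate 6 for 55. Since a median needs only 3 of 5 libraries, 43 rises had all 5 high-dose libraries on the 150 pM side, 34 had 4 and 38 had 3. No rise had all 5 on that side with every DMSO and 15 pM library on the other.

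The groups were also compared for overlap. All 5 libraries at 150 pM lay above every DMSO library in 2 of 115 rises, beside 1.52% of all genes. They lay above every DMSO library other than replicate 1 in 68 rises, beside 8.58% of all genes, and above every library at 15 pM in 68, beside 15.4%. They lay above every DMSO and every 15 pM library in 0 rises, beside 0.841%. The 2 rises clear of DMSO were therefore not clear of 15 pM.

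Against all DMSO libraries the falls separated more often than the rises, and against 15 pM less often; neither difference was tested. All 5 libraries at 150 pM lay below every DMSO library in 17 of 50 falls, beside 1.97% of all genes, and below every DMSO library other than replicate 1 in 27, beside 6.11%. They lay below every library at 15 pM in 16 falls, beside 11.2%, and below every DMSO and 15 pM library in 8, beside 0.702%. The rule used these contrasts, so the counts describe the members and nothing is read from them.

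The 115 rises fell into recurring patterns of libraries, which were noticed after the values were seen. In 67 of them (58.3%), DMSO replicate 1 was on the 150 pM side and no other DMSO or 15 pM library was. In 29 others (25.2%), DMSO replicate 5 and 15 pM replicate 3 were on the 150 pM side while 150 pM replicates 2 and 6 were not. The remaining 19 rises shared neither pattern. These sets were defined from the library values themselves, so their levels in those libraries are a description.

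**Figure D3:**
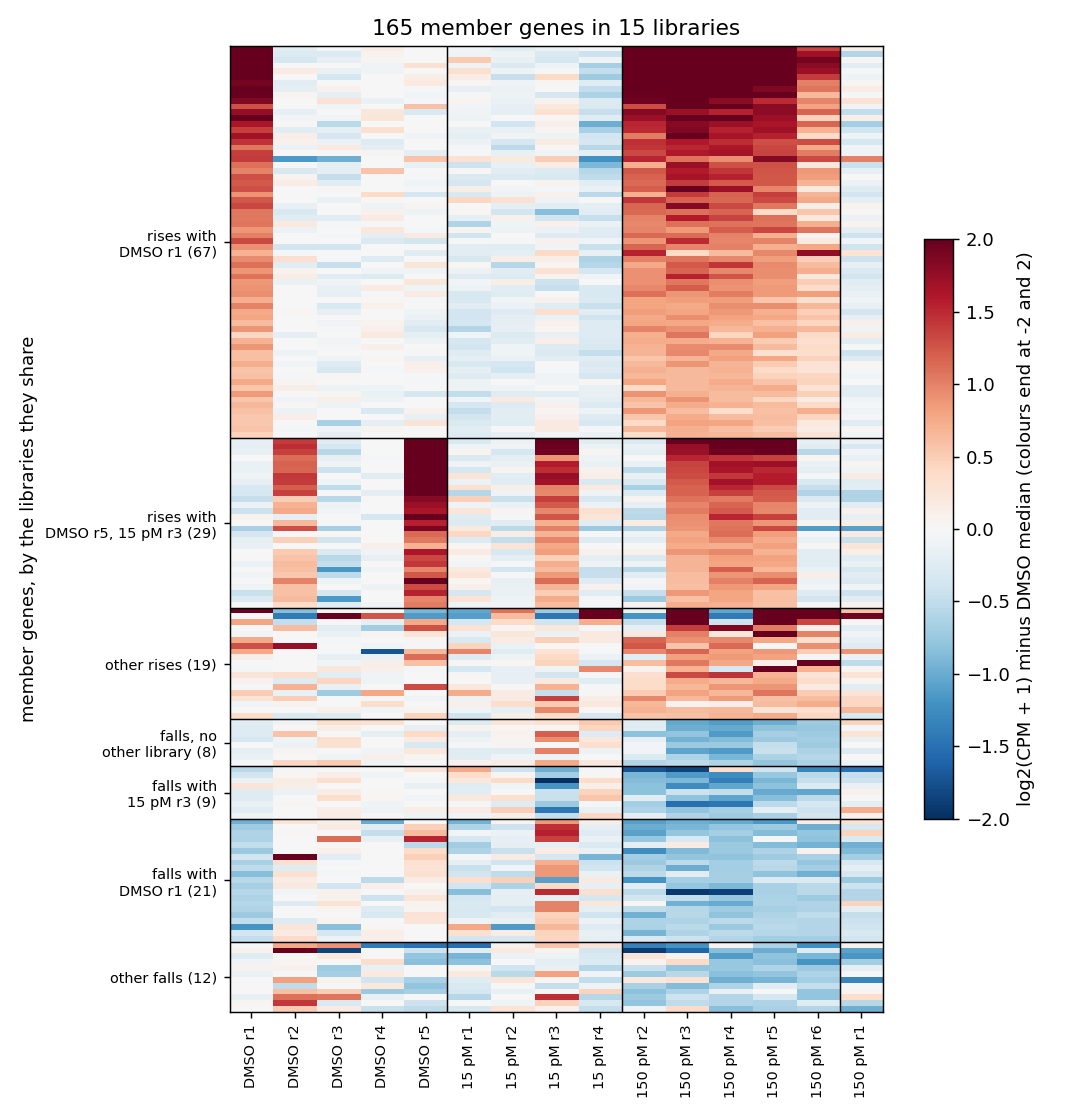
Heat map of the 165 members (vertical axis, ordered by the libraries they share) in 15 libraries (horizontal axis), coloured by log2(CPM + 1) minus the DMSO median, with colours ending at -2 and 2. The top block of 67 rises is red in DMSO replicate 1 and at 150 pM, and the block of 29 rises is red in DMSO replicates 2 and 5, 15 pM replicate 3 and 150 pM replicates 3 to 5 and pale in 150 pM replicates 2 and 6.

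The set of 67 rises was high in DMSO replicate 1 to the same extent as at 150 pM. Its median shift was 1.0 in DMSO replicate 1, and 0.98, 1.12, 1.02 and 0.95 in 150 pM replicates 2 to 5, but 0.57 in 150 pM replicate 6. In the other DMSO libraries the median shift was -0.08 to 0.00, at 15 pM it was -0.28 to -0.01, and in 150 pM replicate 1 it was -0.10. In 38 of these genes all 5 libraries at 150 pM were on the high side. With DMSO replicate 1 set aside, 65 of the 67 had every 150 pM library above every other DMSO library, beside 8.58% of all genes, and 65 had every 150 pM library above every 15 pM library, beside 15.4%. The set was defined by having none of those DMSO and 15 pM libraries on the 150 pM side, which favours such separation. The set held 9 of the 11 rises of at least 100 CPM and 21 of the 31 rises whose DMSO median was under 1 CPM, and its shifts ran from 0.59 to 3.61.

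The largest shift of all the members belonged to Nfu_g_1_015312, a rise of this set with an implied length of 3879 bases. Its level was 18.4 CPM in DMSO replicate 1 and 0.286, 0.474, 0.626 and 0.490 CPM in DMSO replicates 2 to 5. It was 0.437, 0.290, 0.355 and 0.444 CPM at 15 pM, and 17.2, 23.4, 19.3, 14.4 and 2.82 CPM in 150 pM replicates 2 to 6. The gene was thus at the edge of detection in 4 DMSO and all 4 low-dose libraries and at a clear level in 1 DMSO and 4 high-dose libraries, with 150 pM replicate 6 between. In 150 pM replicate 1 it was at 0.640 CPM, just above the highest of the low DMSO libraries and far below DMSO replicate 1.

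Group means for this gene were 4.06 ± 8.04 CPM in DMSO (SD, n = 5), 0.382 ± 0.0730 at 15 pM (n = 4) and 15.4 ± 7.79 at 150 pM (n = 5). On the log2 scale 150 pM differed from DMSO by 1.93 (SE 0.98, edgeR adjusted p = 0.433), which did not pass the threshold of 0.05. Without DMSO replicate 1 it was 5.03 (edgeR adjusted p = 0.000479), and over all settings fitted the adjusted p ranged from 0.000406 to 0.663. Ranges of adjusted p below are of the same kind. Against 15 pM the value was 5.31 (SE 1.37, edgeR adjusted p = 0.0103). At 15 pM against DMSO the value was -3.38 (SE 1.36, edgeR adjusted p = 0.102, range 0.0140 to 0.870). Without DMSO replicate 1 that value was -0.28.

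The rise with the highest CPM, Nfu_g_1_014070, has an implied length of 17252 bases and was likewise highest in the libraries at 150 pM and in DMSO replicate 1, at a smaller size. Its level was 900 CPM in DMSO replicate 1 and 488, 473, 521 and 483 CPM in DMSO replicates 2 to 5. At 15 pM it was 378, 458, 409 and 394 CPM, and in 150 pM replicates 2 to 6 it was 790, 942, 941, 757 and 634 CPM. Every library at 150 pM lay above every 15 pM library and above 4 of the 5 DMSO libraries, while DMSO replicate 1 lay above 3 of the 5 libraries at 150 pM. The doubtful library was at 472 CPM, just under the low DMSO libraries.

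The means of Nfu_g_1_014070 were 573 ± 184 CPM in DMSO (SD, n = 5), 410 ± 34.8 at 15 pM (n = 4) and 813 ± 131 at 150 pM (n = 5). Against DMSO the log2 difference was 0.51 (SE 0.18, edgeR adjusted p = 0.282; range 0.00125 to 0.565). Without DMSO replicate 1 it was 0.74 (edgeR adjusted p = 0.00244). Against 15 pM it was 0.99 (SE 0.19, edgeR adjusted p = 0.00207). With the length trend removed from each library these values were 0.29 against DMSO and 0.40 against 15 pM. At 15 pM against DMSO the main fit gave -0.48 (SE 0.19, edgeR adjusted p = 0.0954, range 0.0466 to 0.577). Without DMSO replicate 1 that value was -0.25 (edgeR adjusted p = 0.167).

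**Figure D4:**
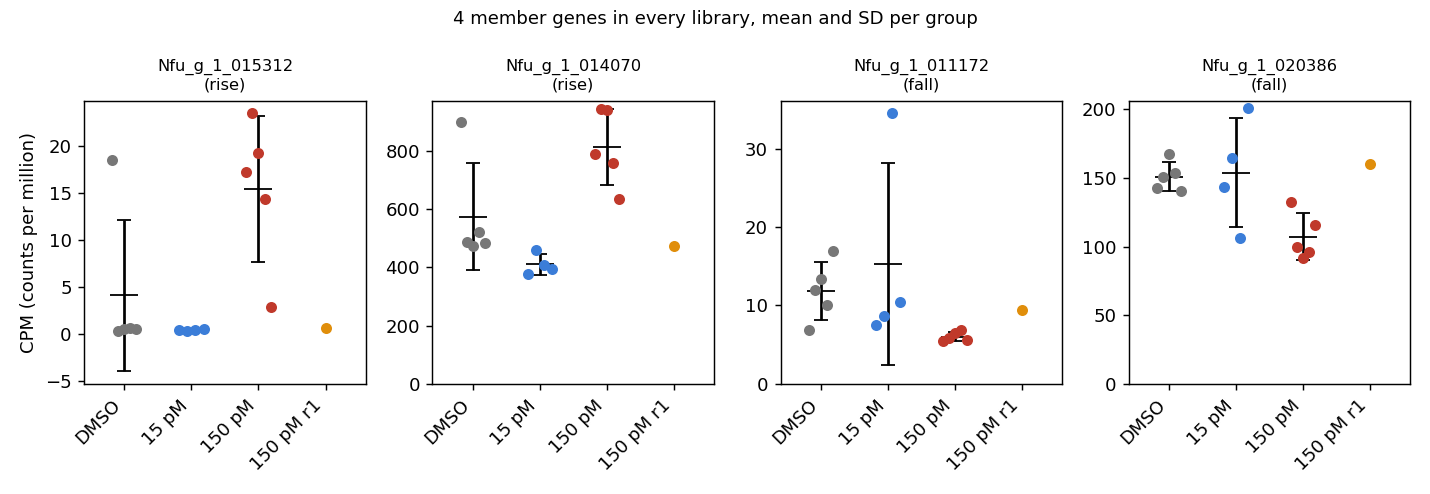
Level of the 4 named members in every library in CPM (vertical axis, linear), by treatment (horizontal axis), with horizontal lines for the mean and bars for the SD of each group and 150 pM replicate 1 shown apart. In both rises 1 DMSO library, at 18.4 and 900 CPM, lies within the 150 pM range, and in Nfu_g_1_011172 1 library at 15 pM, at 34.5 CPM, stands far above the rest.

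The set of 29 rises was high in a mixed set of libraries that cut across the labels. Its median shift was 1.71 in DMSO replicate 5, 0.65 in DMSO replicate 2, 0.96 in 15 pM replicate 3, and 0.92, 1.12 and 0.98 in 150 pM replicates 3, 4 and 5. In 150 pM replicates 2 and 6 it was -0.19 and -0.20, and in DMSO replicates 1 and 3 it was -0.13 and -0.25. DMSO replicate 2 was on the 150 pM side for 24 of the 29. By the definition of the set, none of the 29 could have its 150 pM libraries clear of DMSO or of 15 pM. The highest median of any library was in a DMSO library.

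The member of this set with the largest shift, 3.09, has an implied length of 882 bases. It was at 22.7 CPM in DMSO replicate 5, 2.38 in DMSO replicate 2, and 0.0862 to 0.289 in DMSO replicates 1, 3 and 4. It was at 16.7 CPM in 15 pM replicate 3 and at 0.0486 to 0.194 in the other low-dose libraries. At 150 pM it was at 10, 17.2 and 13.8 CPM in replicates 3, 4 and 5 and at 0.0496 and 0.146 in replicates 2 and 6. Each treatment thus held libraries with and without a clear level of this gene. A member of higher level, with an implied length of 6239 bases, had 212 CPM in DMSO replicate 5, 130 CPM in 15 pM replicate 3 and 126, 137 and 135 CPM in 150 pM replicates 3, 4 and 5, against 66.8 and 72.8 CPM in 150 pM replicates 6 and 2.

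The remaining 19 rises were mixed, and some were set by single libraries. The member with the largest shift among them, 3.45, has an implied length of 615 bases and was listed at 0 CPM in 150 pM replicate 4 and at 550 CPM in replicate 5. Its values in the other high-dose libraries were 0.893, 25.6 and 21.5 CPM, those in DMSO ran from 0.0891 to 15.0 CPM, and those at 15 pM from 0 to 20.3 CPM. Every treatment covered at least from under 1 CPM to over 10 CPM for this gene. A steadier member, with an implied length of 2986 bases and a shift of 0.70, was at 40.7 to 60.1 CPM in DMSO, 36.4 to 47.7 CPM at 15 pM and 56.4 to 129 CPM at 150 pM. All 5 high-dose libraries of that gene lay above every low-dose library, but 2 of them lay below DMSO replicate 2.

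The falls shared no pattern as common as that of the rises. In 8 falls no DMSO or 15 pM library was on the 150 pM side, in 9 only 15 pM replicate 3 was, in 21 DMSO replicate 1 was among those on that side, and 12 had other combinations. All 5 libraries at 150 pM were on their own side in 21 falls, 4 in 20 and 3 in 9. The median shift of the falls was -0.63, -0.76, -0.76, -0.65 and -0.63 in 150 pM replicates 2 to 6. It was -0.26 in DMSO replicate 1 and 0.00 to 0.05 in the other DMSO libraries, and -0.23, -0.08, 0.23 and -0.13 at 15 pM. DMSO replicate 1 was the lowest DMSO library over the falls, as it was the highest over the rises.

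The 8 falls with no other library on the 150 pM side had a median shift of -0.25 in 150 pM replicate 2 and of -0.70 to -0.96 in replicates 3 to 6. Their median shift in 15 pM replicate 3 was 0.53, above that in every DMSO library, and in 150 pM replicate 1 it was -0.02. In 4 of the 8 every 150 pM library lay below every DMSO library, beside 1.97% of all genes, and the set was defined by having no DMSO library on the 150 pM side. The 9 falls shared with 15 pM replicate 3 had a median shift of -0.75 in that library, against 0.06 to 0.16 in the other low-dose libraries. The side on which 15 pM replicate 3 lay was part of how these sets of falls were defined.

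The fall Nfu_g_1_011172 has an implied length of 2662 bases. It had the largest shift among the 7 falls of at least 5 CPM whose 150 pM libraries lay below every other library. Its shift was -0.92 at 150 pM and -0.299 at 15 pM, the same way and just within the limit of 0.3. Its level was 6.91, 11.9, 13.4, 10.02 and 16.9 CPM in DMSO, 7.53, 8.67, 34.5 and 10.4 CPM at 15 pM, and 5.46, 5.82, 6.52, 6.86 and 5.54 CPM in 150 pM replicates 2 to 6. The groups did not overlap, but the gap was narrow, from 6.86 CPM at 150 pM to 6.91 CPM in DMSO replicate 1. The doubtful library was at 9.37 CPM, within the DMSO range.

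The means of Nfu_g_1_011172 were 11.8 ± 3.73 CPM in DMSO (SD, n = 5), 15.3 ± 12.9 at 15 pM (n = 4) and 6.04 ± 0.620 at 150 pM (n = 5). Against DMSO the log2 difference was -0.96 (SE 0.38, edgeR adjusted p = 0.328; range 0.000519 to 0.538). Against 15 pM it was -1.34 (SE 0.40, edgeR adjusted p = 0.0216; range 0.00338 to 0.0604). Without 15 pM replicate 3 the latter was -0.55 and did not pass, while the former, still -0.96, did. At 15 pM against DMSO the log2 difference was 0.38 (SE 0.39, edgeR adjusted p = 0.556, range 0.0303 to 0.944).

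The fall with the highest CPM was Nfu_g_1_020386, with an implied length of 5280 bases. It was at 143, 151, 167, 154 and 140 CPM in DMSO, at 143, 165, 106 and 201 CPM at 15 pM and at 133, 99.4, 91.6, 95.9 and 116 CPM in 150 pM replicates 2 to 6. Every library at 150 pM lay below every DMSO library, but 15 pM replicate 3 lay inside the 150 pM range. The doubtful library, at 160 CPM, lay inside the DMSO range.

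The means of Nfu_g_1_020386 were 151 ± 10.7 CPM in DMSO (SD, n = 5), 154 ± 39.6 at 15 pM (n = 4) and 107 ± 17.0 at 150 pM (n = 5). Against DMSO the log2 difference was -0.49 (SE 0.15, edgeR adjusted p = 0.259; range 0.0106 to 0.519). Against 15 pM it was -0.52 (SE 0.15, edgeR adjusted p = 0.0198; range 0.000426 to 0.0898). Without 15 pM replicate 4 it was -0.40 and did not pass. At 15 pM against DMSO the log2 difference was 0.03 (SE 0.15, edgeR adjusted p = 0.904, range 0.337 to 0.977).

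The members were set beside the edgeR fit of all 19306 genes tested in the 14 libraries, in which 114 of the 115 rises and all 50 falls were tested. The 150 pM against DMSO comparison chose the members and the other comparisons are bounded by the rule, so these counts describe the members and support nothing. At 150 pM against DMSO, 0 rises and 0 falls passed an adjusted p of 0.05, and so did 0.0% of all genes in either direction. The smallest edgeR adjusted p of any member was 0.174. At an unadjusted p under 0.05 there were 76 rises, beside 6.34% of all genes higher, and 35 falls, beside 6.37% lower. DESeq2 called 18 rises and 11 falls, beside 0.549% of all genes higher and 0.632% lower, and limma voom with library weights called 66 and 28, beside 4.36% and 2.82%.

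Among the fits without 1 library, leaving out DMSO replicate 1 changed the count of rises most. EdgeR then called 65 rises, beside 2.3% of all genes higher, and 9 falls, beside 0.613% lower. Of the 65 rises, 64 came from the set of 67 that shared DMSO replicate 1 and 0 from the set of 29, a split that the definition of the sets favours. DMSO replicate 1 was set aside because it lay with 150 pM over these genes, so part of this increase follows from how it was picked.

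Against 15 pM, 72 rises were called higher at 150 pM, beside 17.1% of all genes, and 23 falls were called lower, beside 15.1%. By set of libraries the calls were 66 of the 67 rises shared with DMSO replicate 1, 0 of the 29 shared with DMSO replicate 5 and 15 pM replicate 3, and 6 of the other 19. Among falls they were 8 of 8, 4 of 9, 10 of 21 and 1 of 12, in the order in which those sets were described. The sets were defined from the same library values that this comparison tests, so these splits are largely fixed by the grouping. At 15 pM against DMSO 0 members were called, beside 18.2% of all genes, and at an unadjusted p under 0.05 edgeR had 16 rises and 1 fall, all lower at 15 pM, beside 16.7% of all genes lower. DESeq2 called 8 rises lower at 15 pM, beside 12.9% of all genes, and limma voom called 2, beside 16.2%. At an unadjusted p under 0.05 the count depended on the fit. DESeq2 then had 31 of 114 rises lower at 15 pM, beside 3366 of 19306 genes. Limma voom had 8, beside 4062. The rule kept the 15 pM shift small, so nothing is read from these counts. All these comparisons share libraries. The median log2 fold changes of the rises were 0.67 for 150 pM against DMSO, 1.06 for 150 pM against 15 pM and -0.42 for 15 pM against DMSO. Those of the falls were -0.69, -0.80 and 0.02. Without DMSO replicate 1 the rises had 0.87 for 150 pM against DMSO and -0.20 for 15 pM against DMSO. The falls then had -0.78 and -0.05. Without 15 pM replicate 3 the rises had 1.32 for 150 pM against 15 pM and -0.59 for 15 pM against DMSO. The falls then had -0.65 and -0.11.

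The 1 library labelled 150 pM that the rule did not use gave a reading on the members. In 150 pM replicate 1 the median shift of the rises was -0.11, and 6 of 115 (5.22%) were on the 150 pM side. A shift of at least 0.3 upward was seen in 7 rises (6.09%), beside 6.06% of all genes. By that cutoff the rises were no more often high in that library than other genes. Only 2.04% of all genes lay above DMSO past the midpoint of the rises' median shift, beside the 5.22% of rises on the 150 pM side. The 5.22% of rises on the 150 pM side was counted by each gene's own midpoint, so these 2 shares are unlike and are not compared. Among the falls the median shift was -0.27, and 20 of 50 (40%) were on the 150 pM side. In that library 24 falls (48%) were lower by at least 0.3, beside 13.1% of all genes. The same share of falls was 48% in DMSO replicate 1, 2% to 22% in the other DMSO libraries and 22% to 42% at 15 pM. Beside these stood 5.90%, 1.43% to 6.69% and 15.1% to 21.2% of all genes. Those libraries took part in the choice of members. The DMSO median, from which the shifts in 150 pM replicate 1 are also taken, took part as well. Members vary more within groups than all genes do, so more of them pass a fixed cutoff in any library. The 48% beside 13.1% is therefore a description and not an independent reading. The dose of 150 pM replicate 1 is in doubt, and 1 library gives no error.

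Members were also chosen again with each library left out, and the library left out was then read on them. For rises, 57.7%, 88.2%, 79.6%, 84% and 41.5% were on the 150 pM side in 150 pM replicates 2 to 6. In DMSO the values were 80.5%, 40%, 4.23%, 6.82% and 42.3% in replicates 1 to 5, and at 15 pM they were 3.45%, 0.909%, 34.7% and 1.53%. DMSO replicate 1, read on rises it had no part in choosing, thus lay within the range of the libraries at 150 pM. Each library was read on a different set of rises, so the values are not ranked. The medians that place each midpoint also took part in the choice. Each rise had its own midpoint, whereas all genes were held to 1 cutoff, so the 2 kinds of share are unlike. Between 4.26% and 5.85% of all genes lay above DMSO by at least 0.5 of the members' median shift in the libraries at 150 pM. The same share of all genes was 5.50% in DMSO replicate 1, 1.69% to 6.12% in the other DMSO libraries, 2.4% to 4.61% in 15 pM replicates 1, 2 and 4, and 11.6% in 15 pM replicate 3.

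For the falls the left-out libraries overlapped between treatments. At 150 pM, 42.2%, 74.1%, 87.0%, 60.9% and 52.8% of the falls were on the 150 pM side in replicates 2 to 6. In DMSO the values were 53.6%, 10.9%, 28.2%, 40% and 31.8%, and at 15 pM they were 53.3%, 32.6%, 24.3% and 45.6%. Between 4.97% and 8.75% of all genes lay below DMSO by at least 0.5 of the members' median shift at 150 pM. At 15 pM 11.9% to 18.8% did so, and in DMSO 1.92% to 7.48%. That cutoff was again unlike the falls' own midpoints. Replicates 3, 4 and 5 at 150 pM had higher values than every DMSO and low-dose library, and replicates 2 and 6 did not. Here too each library was read on a different set of falls.

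**Figure D5:**
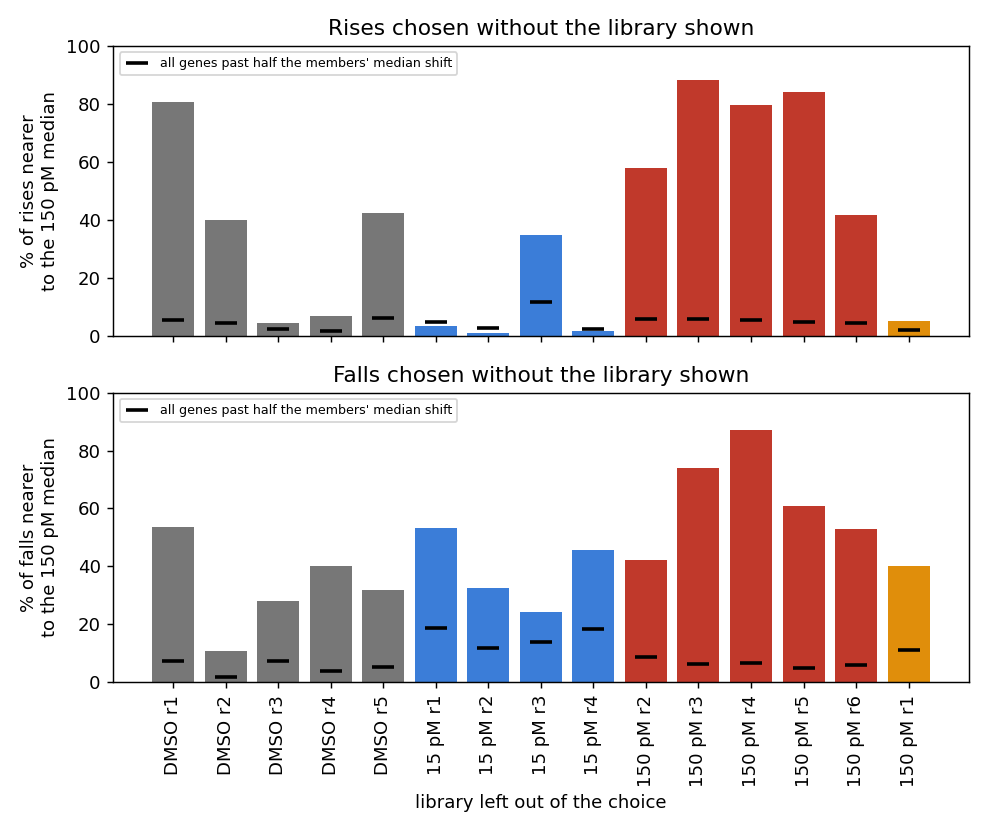
Percent of members nearer to the 150 pM median than to the DMSO median (vertical axis) in each library (horizontal axis), with members chosen without that library; rises on top, falls below, and black dashes for the percent of all genes past 0.5 of the members' median shift. The dashes use 1 cutoff for all genes, whereas each member has its own midpoint. DMSO replicate 1, at 80.5% of rises, stands among the 150 pM libraries, and 150 pM replicate 1, at 5.22%, stands among DMSO and 15 pM libraries.

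Which genes were chosen depended on single libraries and on the settings of the rule. Of the 115 rises, 33 met the rule in all 14 sets that left out 1 library, and of the 50 falls 11 did. With 150 pM replicate 1 counted as 150 pM, 76 rises met the rule, 73 of them members, and 39 falls, 37 of them members. With it counted as 15 pM, 114 rises met the rule, 101 of them members, and 40 falls, 38 of them members. With group means in place of medians 34 rises met it, of which 24 were members, and 107 falls, of which 23 were members. A pseudocount of 0.1 gave 114 rises, 81 of them members, and 90 falls, 40 of them members. One of 5 gave 87 rises, 59 of them members, and 15 falls, 13 of them members.

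Rises varied together among libraries of the same group. After the group mean was subtracted from each gene, Pearson's r between pairs of rises over the 14 libraries had a median of 0.31 and quartiles of 0.02 and 0.80, over 6555 pairs. Falls had a median of 0.10 and quartiles of -0.19 and 0.47, over 1225 pairs, and all genes a median of 0.00 with quartiles of -0.29 and 0.29. All pairs share the same libraries, on which the rule also acted, so these are descriptions. In 67 rises DMSO replicate 1 alone of its group was on the 150 pM side. In 29 others DMSO replicate 5 and 15 pM replicate 3 were on that side. The correlation was not computed without these libraries. Library totals and any handling shared by the brains were not tested for a part in these patterns.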

How the data were processed

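Brain RNA of 15 samples was made into unstranded TruSeq libraries, per the labels' protocols. The submitters' processing notes name featureCounts 1.4.6-p4, STAR 2.4.1d and CASAVA 1.8.2, and the sources used here give no genome build or annotation. The authors deposited whole-number counts per gene, which were used for every result, and an RPKM table. In 6891 genes the deposited RPKM values fitted library totals taken in turn down the table (median largest deviation 4.04e-05 log2 units) and not each library's own total (0.237), so they served only to obtain gene lengths. RPKM values in the text were recomputed from counts. Reads of antisense partners are pooled in unstranded libraries, and near-identical copies may share reads.

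The members and lists were chosen with earlier results of these data known. Shifts are differences of group medians of log2(CPM + 1), with a pseudocount of 1, so that shifts of genes near 0 are understated. Replicates were numbered in listing order. The fit used R 4.3.3 and edgeR 4.0.16: filterByExpr, TMM, and the robust quasi-likelihood F test with the 3 groups and 14 libraries, with Benjamini-Hochberg adjustment over the genes tested, and was tested on simulated data. Each SE given is the size of the log2 fold change divided by the square root of F. It was not returned by the test itself. DESeq2 1.42.0 and limma 3.58.1 were alternatives, besides other scalings, filters, pseudocounts, group centres, a removed length trend and libraries left out. Leaving out both DMSO replicate 1 and 15 pM replicate 3, the other pseudocounts, count minimums and group means for the median shift in 150 pM replicate 1, and the replicate block were chosen after seeing the data.

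With no names matched, at most 2 identifiers in each direction are printed: the largest shift among members of at least 5 CPM whose 150 pM libraries lay beyond every other library, and the highest mean CPM. Because 0 rises met the first condition, Nfu_g_1_015312, the rise with the largest shift, was chosen after its values were seen. Members described by length alone were also chosen then. Marker lists for cell types and complex I were not run because no identifier carried a symbol.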

Additional observations from a re-analysis of the deposited data

Results flagged for a closer look

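In 5 of 24 groups of values examined, 1 library lay far from the others of its group by Dixon's test. Chance does so in about 1 group in 20 where groups are not chosen on their values, but the members were chosen on these values, so that rate does not apply here and the count is a description. DMSO replicate 1 was that library in 4 of them: its median shift was 0.69 over the rises and -0.26 over the falls, and it held 18.4 CPM of Nfu_g_1_015312 and 899.95 CPM of Nfu_g_1_014070. In the fifth, 15 pM replicate 3 held 34.5 CPM of Nfu_g_1_011172 against 7.53 to 10.4 CPM in the other low-dose libraries. Several of these values rest on the same library and are not separate occurrences.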

How the results depend on the processing

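Title numbers 2 to 5 are shared by DMSO and 15 pM libraries, and 150 pM shares fewer than 2 numbers with either group, so a replicate block could be fitted only for 15 pM against DMSO. In those 8 libraries edgeR called 0 members with the block, when 0 of 18963 genes were called, and 0 without it, when 186 were. Of 154 members tested, 5 had an unadjusted p under 0.05 in each fit. Of all genes, 1660 higher and 2242 lower did so with the block, and 2055 and 2287 without it. Deviations of same-numbered libraries from their group means correlated at -0.18 to 0.10 over the 4 pairs. No library correlated best with its own number. Whether same-numbered libraries also shared handling cannot be settled from 4 pairs. The 115 rises became 63 with a minimum mean count of 100, 34 with group means, 76 with 150 pM replicate 1 counted as 150 pM, and 71 to 135 with 1 library left out, the lowest without DMSO replicate 3. The 50 falls became 90 with a pseudocount of 0.1, 15 with one of 5, 107 with group means, and 37 to 72 with 1 library left out. Members called at 150 pM against DMSO, 0 in edgeR, numbered 29 in DESeq2, 94 in limma voom and 0 to 74 with 1 library left out (74 when it was DMSO replicate 1, 17 for 15 pM replicate 3 and 2 for 150 pM replicate 2), and 100 with DMSO replicate 1 and 15 pM replicate 3 both left out. Of all genes these fits called 1.18% in DESeq2, 7.18% in limma voom, 2.91% without DMSO replicate 1, 1.23% without 15 pM replicate 3, 0.0156% without 150 pM replicate 2 and 9.61% with both left out. At 15 pM against DMSO the 0 calls became 8 in DESeq2 and 2 in limma voom, beside 22.1% and 29.6% of all genes called. With 1 library left out they numbered 0 to 3, beside 10.98% to 29.73% of all genes. With both left out they numbered 9, beside 25.8%. The 95 calls between the doses, beside 32.2% of all genes called, ranged from 88 to 95 with 1 library left out, beside 26.8% to 39.7%. Under the other alternatives they ranged from 82 with 150 pM replicate 1 counted as 150 pM, beside 27.1%, to 100 in limma voom, beside 42.1%. The median shift of the falls in 150 pM replicate 1, -0.27, was -0.42 with group means. No named gene reversed its direction against DMSO or 15 pM in the 23 alternative fits of each comparison. The rule chose these genes by direction on nearly the same libraries, so that was largely set in advance. Against 15 pM the calls of Nfu_g_1_011172 and Nfu_g_1_020386 were lost in 2 and 3 fits. The cause of these changes was not tested. The DMSO median was under 1 CPM in 31 rises and 0 falls, and whether low counts had a part in these changes was not tested.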
